A study of Mus musculus with 6 samples.

Results

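The 9 genes described here are *Lin28a*, *Lin28b*, *Hmga1*, *Hmga2*, *Igf2bp1*, *Igf2bp2*, *Igf2bp3*, *Arid3a* and *Dicer1*, which belong to the LIN28/let-7 axis of fetal hematopoiesis. They were chosen by name, as rows of a table of 34573 genes, and with earlier results of these data known. The counts came from polyA-selected RNA sequencing of mouse bone marrow hematopoietic stem cells (HSCs), which the labels give as lineage-negative CD48-CD150+ cells and the study also defines by Kit and Sca-1. There were 3 libraries from mice lacking *Rpl22* (*Rpl22*-/-, labelled KO) and 3 from *Rpl22*+/+ mice (WT). Both genotypes were young adults on a C57BL/6 background, and the *Rpl22* deletion was germline, so that every cell of the animal carried it. Rpl22 is an RNA-binding protein of the large ribosomal subunit. The sources do not say whether a library came from 1 mouse or a pool, or whether replicates were separate sorts, so p-values measure only the spread between these libraries.

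LIN28A and LIN28B are RNA-binding proteins that block the maturation of let-7 microRNAs by gripping the loop of their precursors and recruiting enzymes that add a uridine tail. Mature let-7 in turn represses mRNAs that carry its seed match in their 3′ untranslated region (3′UTR), *Lin28a* and *Lin28b* among them, so that LIN28 and let-7 oppose each other. LIN28B is typical of fetal liver HSCs and falls after birth, when let-7 rises. Of its downstream genes, *Hmga2* is known for raising the self-renewal of fetal HSCs, *Igf2bp3* for the fetal erythro-megakaryocytic program and *Arid3a* for fetal B lymphopoiesis. DICER1 cuts let-7 and most other precursors into mature microRNAs.

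The let-7 sequences show what the family shares and what LIN28 reads. In the RefSeq table for GRCm38.p6, 11 of 1679 mature mouse microRNA names carried the let-7 seed, bases 2 to 8, which are in capitals below. These 4 are shown because they differ outside the seed.
let-7a-5p: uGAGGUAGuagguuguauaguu
let-7d-5p: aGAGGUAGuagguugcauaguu
let-7g-5p: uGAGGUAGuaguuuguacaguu
miR-98-5p: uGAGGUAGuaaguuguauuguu
LIN28 is known to bind GGAG in the precursor loop. GGAG lay between the mature arms in 9 of 12 let-7 family hairpins, and 44.5% of 1005 mouse hairpins in the table held it somewhere. The hairpins of Mirlet7c-1 and Mirlet7c-2 release the same mature let-7c-5p but differ in this stretch, where GGAG is in capitals.
Mirlet7c-1 between the arms: uagaguuacacccugGGAGuuaa
Mirlet7c-2 between the arms: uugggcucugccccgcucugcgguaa

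The seed match searched for in mRNAs was CTACCTC on the sense strand, in the longest annotated 3′UTR of each gene (GENCODE M21, GRCm38). It was present in 8 of the 9 members, *Dicer1* being the exception, whereas 10.8% of 12075 tested genes with an annotated 3′UTR held it. Since the members were chosen as genes of the LIN28/let-7 axis, an excess of matches, in number or per kb, follows in part from that choice. *Lin28b*, *Hmga2* and *Igf2bp1* had 4 matches each, *Lin28a* and *Arid3a* had 2, and *Hmga1*, *Igf2bp2* and *Igf2bp3* had 1. Only 1.32% of the tested genes had 2 or more. The 3′UTR of *Hmga1*, at 1183 bases, was near the median of 1173. Those of the other members were longer, from 1784 bases in *Igf2bp2* to 6337 in *Igf2bp1*. Per kb, the density of matches was 0.90 in *Lin28b*, 1.33 in *Hmga2* and 0.472 in *Igf2bp3*, against 0.0753 over all tested 3′UTRs together. The 4 matches of *Lin28b* and the 4 of *Hmga2* are shown with the 15 bases before them, since these members had the most matches per kb. The match is in capitals, and a final A is also in capitals where it follows the match, since an A there is known to strengthen such sites.
Lin28b site 1, chr10:45381022-45381044, reverse strand: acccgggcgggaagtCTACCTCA
Lin28b site 2, chr10:45378648-45378670, reverse strand: tatacttgttagtaaCTACCTCt
Lin28b site 3, chr10:45378476-45378498, reverse strand: gtttacagcacatggCTACCTCc
Lin28b site 4, chr10:45377060-45377082, reverse strand: aaatgatggcaccgaCTACCTCt
Hmga2 site 1, chr10:120364224-120364246, reverse strand: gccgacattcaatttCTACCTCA
Hmga2 site 2, chr10:120362987-120363009, reverse strand: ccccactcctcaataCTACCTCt
Hmga2 site 3, chr10:120362549-120362571, reverse strand: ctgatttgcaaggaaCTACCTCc
Hmga2 site 4, chr10:120361691-120361713, reverse strand: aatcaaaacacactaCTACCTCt
The first match of *Lin28b* began 36 bases after the stop codon, and that of *Hmga2* began 58 bases after it. Both ended in A, as did 2 matches in *Lin28a*, 3 in *Igf2bp1* and 1 in *Arid3a*. The 1 match each of *Igf2bp2* and *Igf2bp3* also ended in A, and these are shown for comparison with the sites above.
Igf2bp2 site, chr16:22059473-22059495, reverse strand: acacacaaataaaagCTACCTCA
Igf2bp3 site, chr6:49086787-49086809, reverse strand: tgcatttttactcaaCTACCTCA
The single match of *Hmga1*, 801 bases after its stop codon, was followed by another base. The shorter match TACCTCA, not preceded by C, was counted apart and is not in the numbers above. It occurred 3 times in *Hmga2*, 2 times in *Arid3a* and 1 time each in *Lin28b*, *Igf2bp1* and *Igf2bp2*. Of the tested genes, 8.22% held it. A match of either form is a description, and binding by let-7 was not measured.

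**Figure D1:**
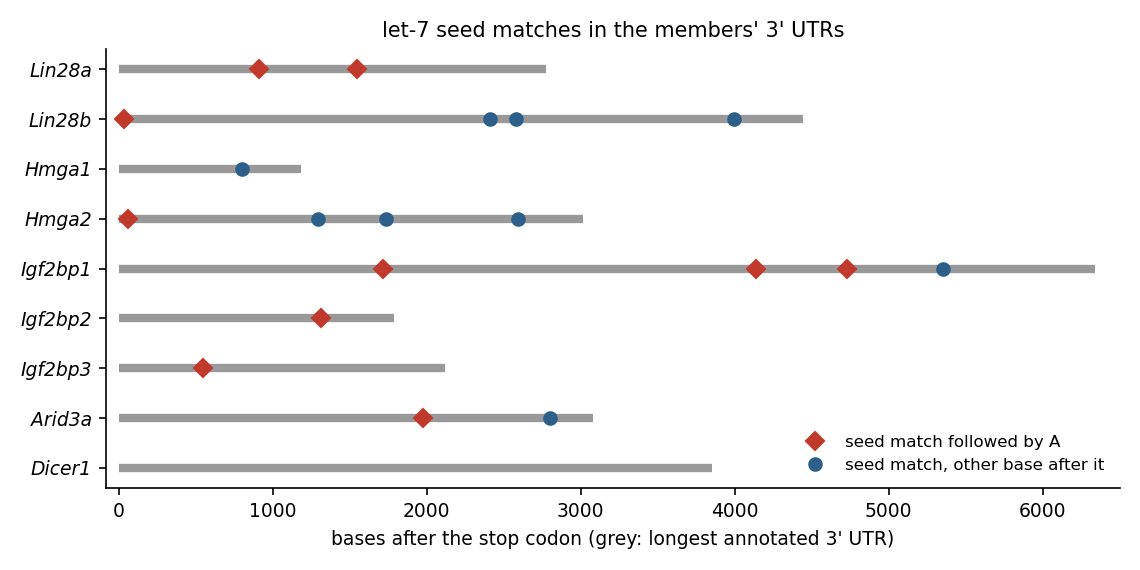
Positions of let-7 seed matches along the longest annotated 3′UTR of each member, in bases after the stop codon. Grey lines are the 3′UTRs, red diamonds are matches followed by A and blue circles are matches followed by another base. *Lin28b* and *Hmga2* each have 1 match within 58 bases of the stop codon and 3 farther on, and *Dicer1* has none.

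The libraries held between 9321123 and 13385850 reads on genes, the lowest being *Rpl22*+/+ replicate 3. *Rpl22* itself was down to 449, 527 and 546 reads in *Rpl22*-/- HSCs, from 6890, 7001 and 5031 in wild-type HSCs, a log2 fold change of -3.75 ± 0.105 (SE), so that every library matched its label. Of 14004 genes tested, 780 (5.57%) passed an adjusted p of 0.05 in the quasi-likelihood test of edgeR (Benjamini-Hochberg), 459 higher (3.28%) and 321 lower (2.29%) in *Rpl22*-/- HSCs. That count was 1720, 370 and 127 without *Rpl22*-/- replicates 1, 2 and 3, and 206, 259 and 241 without *Rpl22*+/+ replicates 1, 2 and 3. All 12 HSC marker genes were detected and tested, summing to 2393 to 2667 CPM (read counts scaled to a library of 1000000 reads) in *Rpl22*-/- and 2621 to 2683 in *Rpl22*+/+ libraries, and 1 of them, *Fgd5*, fell. Megakaryocyte markers summed to 1004 to 1266 CPM in *Rpl22*-/- and 723 to 943 in *Rpl22*+/+ libraries, and 5 of 7 rose. Neutrophil markers summed to 100.1 to 225 and 66.9 to 106 CPM, with 2 of 9 higher; *Rpl22*-/- replicate 2 stood apart in this list, with 1218 reads of *Mpo* against 19 to 225 in the other libraries. Erythroid markers overlapped between genotypes, at 37.8 to 43.4 and 36.9 to 44.9 CPM, and only *Car1* of 5 tested fell. B cell markers were at 27.1 to 29.6 and 23.2 to 25.2 CPM with *Igll1* at 0, T cell markers were at 3.35 to 5.09 and 3.93 to 6.07 CPM with *Cd3e* at 0, and none of the 3 tested in these lists passed.

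No member was called different between genotypes. There were 7 members with enough reads to be tested. With the quasi-likelihood test of edgeR or with limma-voom, 0 of 7 passed an adjusted p of 0.05. None passed with DESeq2 either, but DESeq2 gave *Lin28b* no adjusted p. At an unadjusted p of 0.05 the edgeR count was also 0, and the smallest p was 0.126, for *Hmga1*. The background was 5.57% of all genes tested. The estimated log2 fold changes ran from -0.14 in *Hmga2* to 0.22 in *Igf2bp3*, with 2 members higher and 5 lower in *Rpl22*-/- HSCs and a median of -0.042, beside a median of -0.0068 over all genes. Since these were bulk libraries, fewer expressing cells and less RNA per cell cannot be told apart for any member.

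*Lin28b* (chr10:45376620-45486395, reverse strand, GRCm38), the member best known as the switch of the fetal HSC program, was barely detected in adult HSCs of either genotype. The *Rpl22*-/- libraries 1 to 3 held 19, 3 and 13 of its reads, and the *Rpl22*+/+ libraries 1 to 3 held 8, 16 and 9. The highest and the lowest of the 6 libraries were both *Rpl22*-/-, and the *Rpl22*+/+ libraries lay between them. Summed over a genotype, these were 35 reads of 38630749 and 33 reads of 34646627. Over the summed reads that is 0.906 CPM (exact Poisson 95% interval 0.631 to 1.26) in *Rpl22*-/- and 0.952 (0.656 to 1.34) in *Rpl22*+/+ HSCs, where the intervals cover counting error only. Among the libraries the spread was wide, with a mean of 0.906 ± 0.620 CPM (SD, n = 3) against 0.945 ± 0.335. The log2 fold change was -0.042 ± 0.554 (SE), with a 95% interval of -1.22 to 1.13 and an adjusted p of 0.974 in the quasi-likelihood test of edgeR. The interval therefore includes anything from 0.430 to 2.19 times the wild-type level, and a change within that range cannot be told from no change here. Single libraries moved the estimate: it was 0.38 without *Rpl22*-/- replicate 2, which had 3 reads, and 0.26 without *Rpl22*+/+ replicate 2, both on the other side of 0, and it was -0.57 without *Rpl22*-/- replicate 1.

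*Lin28a* (chr4:134003330-134018841, reverse strand), the paralog typical of embryonic stem cells, had 3 reads in all 6 libraries together. They were 1 read in *Rpl22*-/- replicate 2 and 2 reads in *Rpl22*+/+ replicate 1. This is 0.0409 CPM, with an exact Poisson 95% interval of 0.00844 to 0.120. It was filtered out before testing, and no fold change is given. An antisense transcript, *Gm13061*, shares 234 exon bases with *Lin28a* and had 0 reads. In the sorted cells *Lin28b* was thus the LIN28 gene with most reads, 68 against 3.

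**Figure D2:**
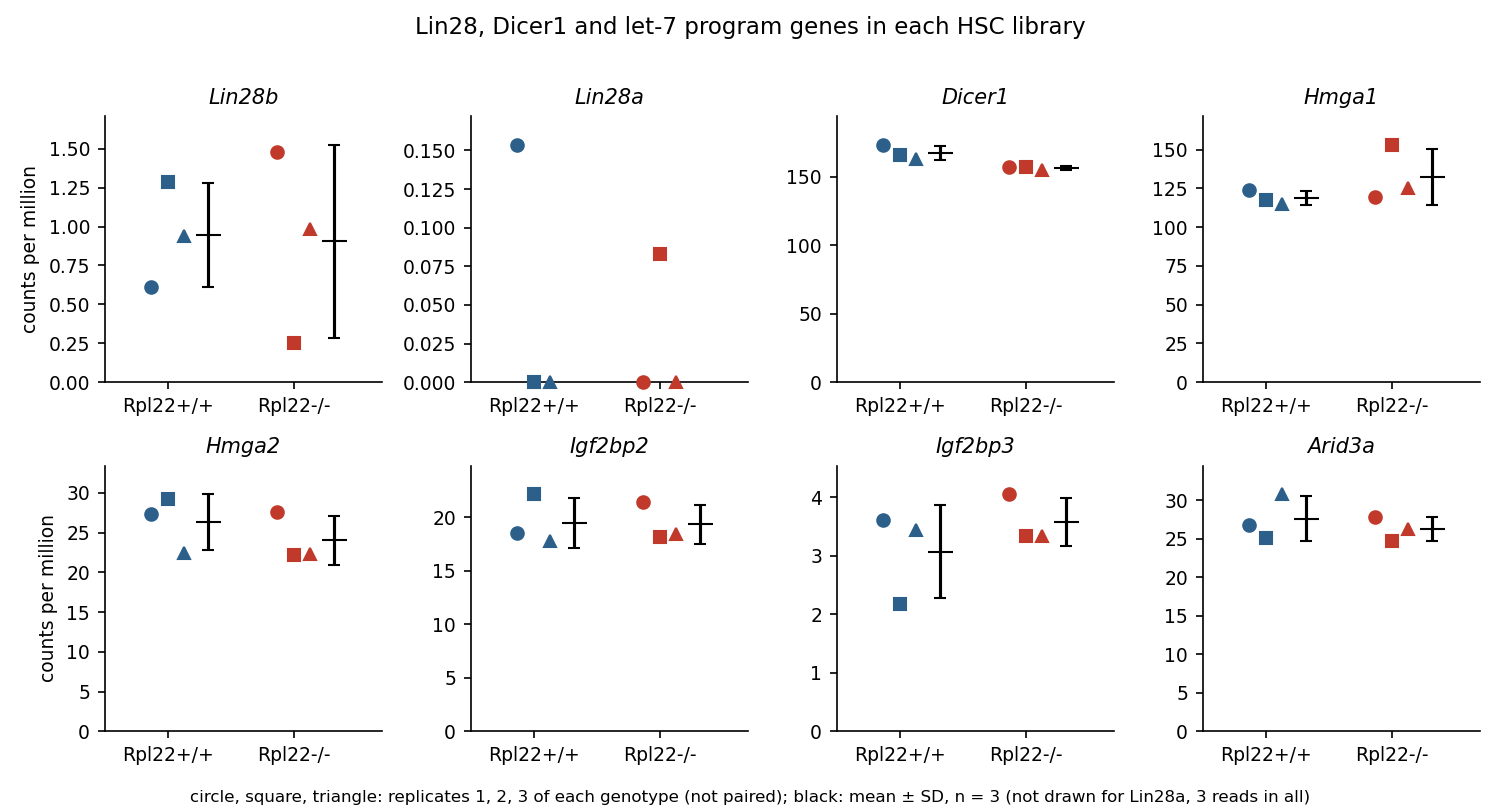
CPM in each library for the 8 members with any read, by genotype. Circles, squares and triangles are replicates 1, 2 and 3, and black marks are the mean ± SD (n = 3), which is left out for *Lin28a*. The genotypes overlap in every panel but that of *Dicer1*, where the 3 *Rpl22*-/- libraries sit between 155 and 157 CPM and the *Rpl22*+/+ libraries between 163 and 173. *Igf2bp1*, with 0 reads throughout, is not drawn.

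*Dicer1* (chr12:104687742-104751952, reverse strand) encodes the RNase that releases mature let-7 from its precursor, and it was the member with most reads. The *Rpl22*-/- replicates 1 to 3 gave 2016, 1887 and 2038 reads, and the *Rpl22*+/+ replicates 1 to 3 gave 2256, 2064 and 1565. Scaled to CPM, the level was 157, 157 and 155 without Rpl22 and 173, 166 and 163 with it, so that each *Rpl22*-/- library lay under the lowest *Rpl22*+/+ library. No other member had genotypes that did not overlap, while 26.9% of all genes tested did not overlap, and 13.6% of all genes tested did so with *Rpl22*-/- lower. The means were 156 ± 1.31 and 167 ± 5.41 CPM (SD, n = 3). The difference was small, -0.098 ± 0.0786 (SE) on the log2 scale with a 95% interval of -0.26 to 0.069, and its adjusted p was 0.50 in the quasi-likelihood test of edgeR. *Dicer1*, with 16750 exon bases, is the longest member, and once the trend of counts on gene length was removed from each library the estimate was 0.00041.

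The 2 HMGA genes encode AT-hook chromatin proteins that bend DNA and open it to transcription factors. *Hmga1* (chr17:27556497-27563674, forward strand) had 119, 153 and 125 CPM in *Rpl22*-/- and 124, 118 and 115 CPM in *Rpl22*+/+ replicates 1 to 3, from between 1107 and 1840 reads. The *Rpl22*-/- replicate 2 stood above the other 5 libraries, while replicate 1 lay among the *Rpl22*+/+ values. The *Rpl22*-/- replicate 2 library was also the one with the most *Mpo* reads and the fewest *Lin28b* reads, and whether these are related was not tested. The mean was 133 ± 18.0 against 119 ± 4.36 CPM (SD, n = 3). The log2 fold change of 0.16 ± 0.0970 (SE, 95% interval -0.049 to 0.36) had an adjusted p of 0.364 in the quasi-likelihood test of edgeR. Without *Rpl22*-/- replicate 2 it was 0.041, the lowest of all settings. *Hmga1* shares 102 exon bases with *AI413582* on the opposite strand.

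*Hmga2* (chr10:120361275-120476469, reverse strand), the let-7 target with the densest matches, was detected in all 6 libraries. Its reads numbered 354, 267 and 293 in the *Rpl22*-/- libraries 1 to 3, against 356, 364 and 215 in the *Rpl22*+/+ libraries 1 to 3. In CPM these were 27.6, 22.2 and 22.3 against 27.3, 29.2 and 22.4. Each genotype thus had libraries near 22 and near 27, and they overlapped. The means were 24.0 ± 3.09 and 26.3 ± 3.54 CPM (SD, n = 3), with a log2 fold change of -0.14 ± 0.138 (SE, 95% interval -0.43 to 0.16) and an adjusted p of 0.613 in the quasi-likelihood test of edgeR. Its sign was negative under all 16 other settings, between -0.24 and -0.054. An antisense transcript, *1700006J14Rik*, shares 140 exon bases with *Hmga2* and had 48 to 68 reads per library.

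The IGF2BP proteins bind mRNAs and stabilize them or control their translation, and *Igf2bp1* and *Igf2bp3* are regarded as the oncofetal members. *Igf2bp1* (chr11:95957163-96005940, reverse strand) had 0 reads in all 6 libraries, which allows up to 0.0409 CPM if 3 reads are taken as the limit of a count of 0. *Igf2bp2* (chr16:22059009-22163299, reverse strand) was counted at 275, 218 and 242 reads in *Rpl22*-/- libraries 1 to 3, against 241, 276 and 171 in *Rpl22*+/+ libraries 1 to 3. This was the member whose genotypes were closest, at 19.3 ± 1.83 and 19.5 ± 2.34 CPM (SD, n = 3). The log2 fold change was -0.014 ± 0.138 (SE), with a 95% interval of -0.31 to 0.28 and an adjusted p of 0.966 in the quasi-likelihood test of edgeR.

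*Igf2bp3* (chr6:49085223-49214957, reverse strand) was low, at 52, 40 and 44 reads in *Rpl22*-/- libraries 1 to 3, against 47, 27 and 33 in *Rpl22*+/+ libraries 1 to 3. In CPM the *Rpl22*-/- libraries lay between 3.33 and 4.05 and the *Rpl22*+/+ libraries between 2.17 and 3.61, so that the genotypes overlapped and the lowest library was *Rpl22*+/+ replicate 2. The log2 fold change was 0.22 ± 0.286 (SE), with a 95% interval of -0.38 to 0.83 and an adjusted p of 0.698 in the quasi-likelihood test of edgeR. The interval leaves room for 0.766 to 1.78 times the wild-type level. *Igf2bp3* shares 1529 exon bases with *Malsu1* (listed as *2410003K15Rik*) on the opposite strand, which had 122 to 181 reads per library, and the strand setting of the counting is not given, so reads of the pair may not be fully separated. Per length, *Igf2bp2* made up 86.6% of the *Igf2bp* family level in these HSCs and *Igf2bp3* 13.4%.

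*Arid3a* (chr10:79927043-79955018, forward strand) encodes an AT-rich interaction domain transcription factor of B lineage cells. It had 27.8, 24.7 and 26.2 CPM in *Rpl22*-/- and 26.8, 25.1 and 30.8 CPM in *Rpl22*+/+ replicates 1 to 3, from between 296 and 357 reads. The highest library was *Rpl22*+/+ replicate 3 and the lowest was *Rpl22*-/- replicate 2, with the other 4 interleaved. The log2 fold change was -0.067 ± 0.122 (SE), with a 95% interval of -0.33 to 0.19 and an adjusted p of 0.796 in the quasi-likelihood test of edgeR. Without *Rpl22*+/+ replicate 3 it was 0.015.

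**Figure D3:**
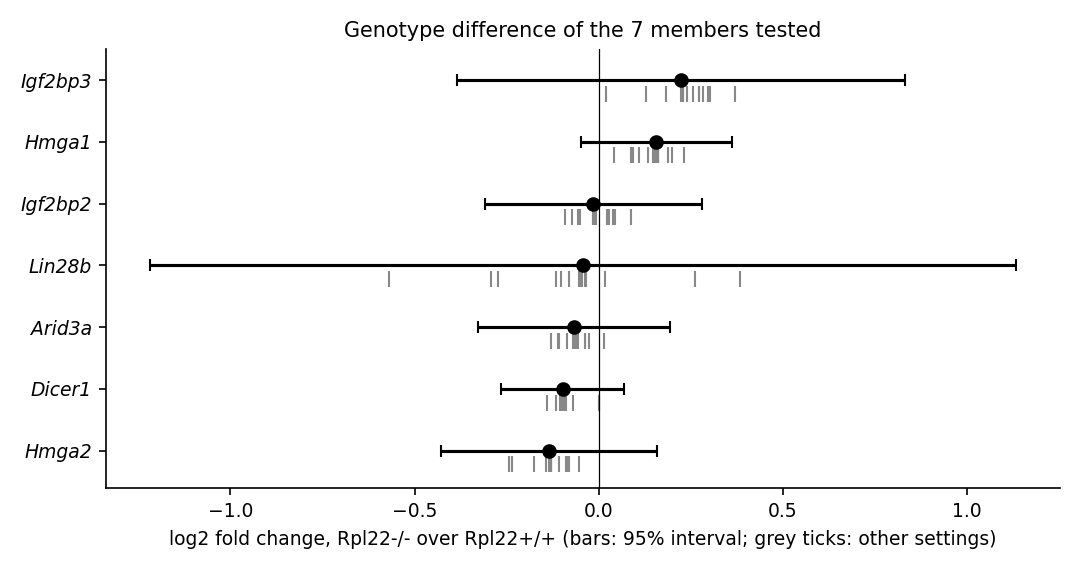
Log2 fold change of *Rpl22*-/- over *Rpl22*+/+ HSCs for the 7 members tested. Black points and bars are the estimates with 95% intervals, and grey ticks are the estimates under the other settings. Every interval includes 0, and the interval of *Lin28b*, from -1.22 to 1.13, is the widest.

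The intervals differed in width with the number of reads. *Dicer1*, with 5941 and 5885 reads in the 2 genotypes, had an SE of 0.0786 on the log2 scale, and *Hmga1*, with 5020 and 4184 reads, had 0.0970. *Lin28b*, with 35 and 33 reads, had 0.554. The interval of *Dicer1* therefore excludes a fold under 0.832 or over 1.05, and that of *Hmga1* a fold under 0.966 or over 1.29, while that of *Lin28b* includes a doubling.

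Compared per length, the members spanned a wide range of expression. *Hmga1* was highest at 59.2 CPM per kb of exon (range over the 6 libraries 54.2 to 72.1), the 95.1st percentile of 12133 tested coding genes, whose median was 8.40. *Dicer1* followed at 9.66 (9.24 to 10.3), close to the median gene. *Arid3a* at 4.84 (4.44 to 5.54), *Hmga2* at 3.72 (3.28 to 4.31) and *Igf2bp2* at 2.62 (2.40 to 2.99) lay below it, between the 21.8th and 33.5th percentiles. *Igf2bp3* was at 0.407 (0.266 to 0.497), the 5.12th percentile, and *Lin28b* at 0.102 (0.0275 to 0.163), the 0.445th percentile. From *Hmga1* down to *Lin28b* no neighbours in this order overlapped in range, although *Arid3a* and *Hmga2* were separated by little more than 0.1. *Lin28a*, with 0 to 0.0384, overlapped *Lin28b*, and *Igf2bp1* was last at 0. Within the HMGA family *Hmga1* made up 94.1% of the level per length and *Hmga2* 5.91%. The number of seed matches did not order the levels: *Igf2bp1* and *Hmga2*, each with 4, were at 0 and 3.72 CPM per kb.

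**Figure D4:**
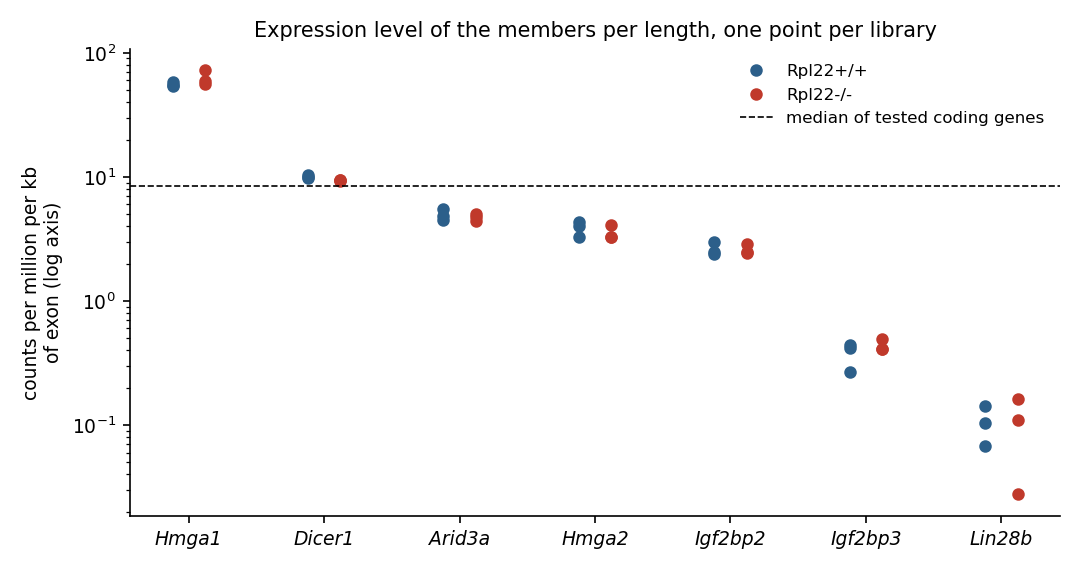
Expression level of the 7 tested members in CPM per kb of exon, on a log axis, with 1 point per library. The dashed line is the median of tested coding genes, 8.40. *Hmga1* lies above the line in all 6 libraries and *Lin28b* lies lowest.

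For *Hmga1*, the tested member with the smallest p, the genes whose log2 CPM ran most alike over the 6 libraries were *Ppp1r36* (Pearson r = 0.996), *Blmh* (r = 0.995), which encodes bleomycin hydrolase, and *Smg5* (r = 0.991), which encodes a factor of nonsense-mediated mRNA decay. Each was highest in *Rpl22*-/- replicate 2, as *Hmga1* was, and *Ppp1r36* had only 7 to 18 reads per library. With 6 points that share the libraries and their depth, 294 genes reached an r over 0.9.

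The let-7 genes themselves gave almost no reads. PolyA-selected libraries do not capture mature microRNAs, and why the precursor rows held so few reads was not tested. Of 13 let-7 precursor genes looked for, 10 were rows of the table, and 4 had any read. *Mirlet7a-1* had 2 reads, in *Rpl22*+/+ replicate 3. *Mirlet7c-2* had 1 in *Rpl22*-/- replicate 1, *Mirlet7i* had 1 in *Rpl22*+/+ replicate 1 and *Mir98* had 1 in *Rpl22*+/+ replicate 2. Mature let-7 was not measured here.

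Other genes whose products make, load and degrade let-7 were read from the same fit. Of 18 tested genes of let-7 biogenesis and silencing, 1 rose and 0 fell, with a median log2 fold change of -0.025. This was 5.56% called, beside 5.57% of all genes tested. *Hnrnpa1*, which binds the let-7a precursor loop and slows its processing, rose from 1355 ± 49.7 to 1740 ± 170 CPM (SD, n = 3), with a fold change of 0.36 on the log2 scale (adjusted p 0.0466) in the quasi-likelihood test of edgeR. It lost the call with the replicate block (0 called in the list), with the length trend removed, and without any 1 library other than *Rpl22*-/- replicate 1. *Drosha*, which cuts the primary transcript in the nucleus ahead of DICER1, was at 0.26 on that scale (adjusted p 0.0927), and *Ago3* (listed as *Eif2c3*), an Argonaute that carries mature microRNAs, was at -0.31 (adjusted p 0.0993), neither past the threshold by the same test.

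Textbook let-7 targets outside the 9 members were also read from the fit. Of 30 named, 29 were in the table and 27 were tested; *Hras* was not analysed here. There were 5 that rose and 0 that fell, 18.5% called higher beside 3.28% of all genes. The median log2 fold change over the list was 0.059. Since the list was chosen with earlier results of these data known, its share is a description and no test of let-7 targets. *Thbs1*, encoding the matrix glycoprotein thrombospondin 1, rose to 188, 174 and 243 reads in *Rpl22*-/- libraries 1 to 3 from 144, 93 and 70 in the *Rpl22*+/+ ones, a log2 fold change of 0.87 ± 0.186 (SE). The proto-oncogene *Myc* had 398 ± 36.1 against 270 ± 62.1 CPM (log2 fold change 0.56). The G1 genes *Ccnd1* and *Cdk6* had log2 fold changes of 0.44 and 0.37, and *Bcl2l1*, encoding the survival protein BCL-XL, had 0.46. The genotypes did not overlap in any of the 5, which adds little for genes picked by adjusted p. Over all genes tested, 13.3% did not overlap with *Rpl22*-/- higher. The adjusted p of the 5 in the quasi-likelihood test of edgeR lay between 0.0157 and 0.0470. The CTACCTC match occurred once in the 3′UTR of *Bcl2l1* and 0 times in the other 4, while *Ccnd1*, *Cdk6* and *Thbs1* each had 1 match to TACCTCA, a shorter seed match followed by A, not preceded by C, which 8.22% of tested genes held. The count of 5 fell to 1, 0, 2, 1 and 0 without *Rpl22*-/- replicates 2 and 3 and *Rpl22*+/+ replicates 1, 2 and 3. Without *Rpl22*-/- replicate 1 it was again 5 higher, and 2 were called lower, *Insr* and *Tgfbr1*, named after their values were seen. The megakaryocyte markers that moved with genotype moved with these 5 as well, and their part in it was not tested.

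Of 12 further fetal HSC and fetal growth genes, 8 were tested, 0 rose and 1 fell, with 2 estimates higher and 6 lower. This was 12.5% called, beside 5.57% of all genes tested. The median log2 fold change was -0.61, beside -0.0068 over all genes, and it rested partly on genes with few reads. *Igf2*, *H19* and *Dlk1*, all lower but not called, had 43, 18 and 58 summed reads in *Rpl22*-/- and 82, 33 and 87 in *Rpl22*+/+ libraries. *Peg3*, an imprinted zinc finger gene, fell to 14, 13 and 17 reads in *Rpl22*-/- libraries 1 to 3 from 37, 49 and 31 in the *Rpl22*+/+ ones, which is -1.52 ± 0.335 (SE) on the log2 scale (adjusted p 0.0187) in the quasi-likelihood test of edgeR. It lost the call without any 1 library other than *Rpl22*-/- replicate 1. *Cdkn1c*, encoding the cell cycle inhibitor p57, had 12.8 ± 1.67 against 18.1 ± 2.75 CPM and an adjusted p of 0.0757, and *Plag1*, a growth-promoting zinc finger gene, had 28.9 ± 10.3 against 42.6 ± 6.30 CPM and an adjusted p of 0.0885 in the same fit. The 4 genes left untested, named after their values were seen, were *Sox17*, *Hbb-bh1* and *Hba-x* with 0 reads and *Hbb-y* with 2, so that the embryonic globins were at or near 0 as *Igf2bp1* and *Lin28a* were.

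**Figure D5:**
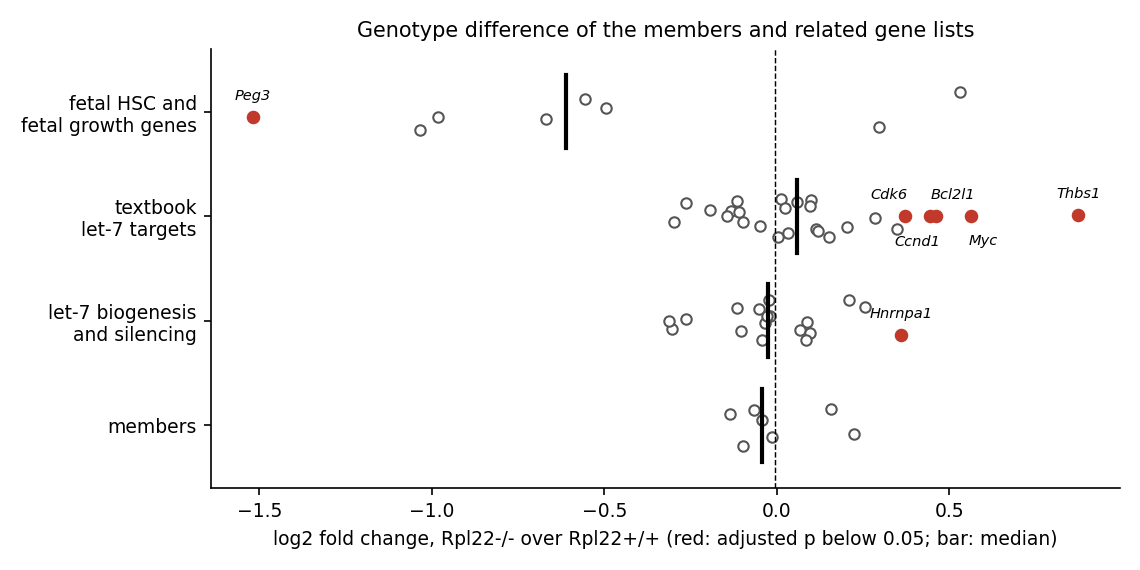
Log2 fold change of *Rpl22*-/- over *Rpl22*+/+ HSCs for the tested members and 3 related gene lists. Each circle is 1 gene, red where the adjusted p was below 0.05, black bars are list medians and the dashed line is the median of all genes tested, -0.0068. No member is red, 5 textbook let-7 targets are red on the higher side, and *Peg3* is red on the lower side.

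The same study listed genes that were higher in *Rpl22*-/- than in *Rpl22*+/+ leukemias and were predicted let-7 targets or transcripts bound by Lin28b. The binding was taken from cited data and not measured in those leukemias. Read in these HSCs, 2 of 53 tested genes of the let-7 part rose and 2 fell, with a median log2 fold change of -0.092. This was 7.55% called, beside 5.57% of all genes tested. The genes that rose were *Ccnd1* and *Cdk6*, already given. Those that fell were *Hook1*, a microtubule-linked adaptor (log2 fold change -0.36), and *Piga*, of glycosylphosphatidylinositol anchor synthesis (-0.44), each with 1 seed match. With the length trend removed they were at -0.30 and -0.40, narrowly no longer called in the quasi-likelihood test of edgeR (adjusted p 0.0505 and 0.0518), and neither was called without any 1 library other than *Rpl22*-/- replicate 1. Of 36 tested genes of the Lin28b-bound part 2 rose and 0 fell (5.56% called, beside 5.57% of all genes tested), with a median of -0.062. The genes were *Myc* and *Sorbs3*, encoding the adhesion protein vinexin (log2 fold change 0.42). *Apoe*, a lipoprotein component, was next at 0.38 with an adjusted p of 0.0532 in the quasi-likelihood test of edgeR. With DESeq2 there were 5 higher and 2 lower, with the replicate block 3 higher and 2 lower, and without *Rpl22*-/- replicate 1 there were 5 higher and 4 lower. Without *Rpl22*-/- replicate 2 or *Rpl22*+/+ replicate 1 there was 1 higher and 0 lower, without *Rpl22*+/+ replicate 3 there was 1 in each direction, and without *Rpl22*-/- replicate 3 or *Rpl22*+/+ replicate 2 there were 0. In the let-7 part, 2 were higher and 4 lower without *Rpl22*-/- replicate 1, 1 was higher without *Rpl22*+/+ replicate 2 and 0 without any 1 of the others. *Lin28b* itself had 68 reads in these cells, as given above.

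Across all genes tested, those with more seed matches in the 3′UTR had slightly lower estimates, a grouping chosen after the data were seen and given with no test. The median log2 fold change was -0.0062 over 10766 genes with 0 matches, -0.034 over 1150 with 1, -0.047 over 135 with 2 and -0.099 over 24 with 3 or more. The median 3′UTR length grew along this series from 1061 to 4451 bases, and with the trend on gene length removed the medians were 0.0039, -0.0071, -0.0031 and -0.034. The members with 4 matches that were tested, *Hmga2* and *Lin28b*, had -0.14 and -0.042.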

How the data were processed

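RNA sequencing was analysed in HSCs from 3 *Rpl22*-/- and 3 *Rpl22*+/+ samples, grouped by genotype as labelled. The authors deposited raw read counts per gene, as whole numbers without normalization; reads were checked with FastQC, aligned to mm10 with TopHat2 (version 2.1.1 per the submitters' processing notes) and counted with HTSeq. The annotation and the strand setting are not given in the sources used here. The last 5 lines, the sums HTSeq wrote for reads left uncounted (on no gene, not uniquely aligned and others), held 58.6% to 60.9% of each library and were left out. The 9 members and the gene lists were chosen with earlier results of these data known.

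Counts were filtered with filterByExpr, scaled by TMM and tested with edgeR 4.0.16 in R 4.3.3 (glmQLFit, glmQLFTest; Benjamini-Hochberg over 14004 genes, threshold 0.05), where the study used DESeq2, here an alternative (1.42.0). CPM used TMM-scaled library sizes; levels per length used exon lengths of GENCODE M21, to which 30893 of 34573 symbols were matched, 1841 of them through older symbols. Intervals of fold changes are 95%. The code was tested on simulated counts. A check for near-identical transcripts is not reported here. Named genes were all members, *Rpl22*, called genes and the 3 with the smallest p of each list, let-7 precursors with reads, and the 3 genes most like the member with the smallest p (log2 CPM, pseudocount 0.5). The leukemia lists were taken by name from a list the study made on other samples. Lists were described by counts and medians, without set tests. The other settings were RLE, upper-quartile or no scaling factors, DESeq2, limma-voom (limma 3.58.1), 2 other count filters, a replicate term, a fit free of the gene length trend (lengths available for 95.2% of tested genes), and each library left out. Replicates differed by more than counting noise, and more so among *Rpl22*-/- libraries. The chi-square per gene was 9.54 to 13.9 between *Rpl22*-/- replicates and 4.08 to 6.04 between *Rpl22*+/+ replicates.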

Additional observations from a re-analysis of the deposited data

How the results depend on the processing

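No member passed the threshold under any of the 16 other settings that were run. Of the member estimates under them, 100 kept their sign and 11 reversed, with none past the threshold. With the length trend removed, *Lin28b* was 0.017, *Igf2bp2* 0.038 and *Dicer1* 0.00041; with the replicate block as well, *Igf2bp2* was 0.043 and *Dicer1* 0.00085. With 1 library left out, *Lin28b* ran from -0.57 to 0.38, *Igf2bp2* from -0.092 to 0.089, *Arid3a* from -0.13 to 0.015, *Dicer1* from -0.12 to -0.071, *Hmga1* from 0.041 to 0.23, *Hmga2* from -0.24 to -0.054 and *Igf2bp3* from 0.020 to 0.37. *Lin28b* was not tested where 10 reads were asked of every sample, and DESeq2 gave it an estimate but no adjusted p.

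The count of 780 genes was 1422 of 20635 without the filter, and from 127 to 1720 with 1 library left out. With library size as the only scaling, 850 genes were called, 43.4% of them higher against 58.8%, moved the median of all genes to -0.051 and left 3 textbook targets called. With 1 library left out, genes called in either direction ranged from 0 to 7 among the textbook targets, 0 to 3 in the biogenesis list, 0 to 3 in the fetal list, 0 to 6 in the leukemia let-7 list and 0 to 9 in the Lin28b-bound list. DESeq2 called 2 fetal and 7 Lin28b-bound genes, and no filter called 3 fetal, 8 Lin28b-bound and 2 biogenesis genes. With the length trend removed 0 biogenesis and 2 leukemia let-7 genes were called, and 2 fetal genes once the block was added. The causes were not tested.

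Same-numbered samples deviated together with correlations of -0.10, 0.055 and 0.045, so the numbers were not taken to pair the samples. With the replicate block 904 genes, 0 biogenesis and 5 Lin28b-bound genes were called; the members' calls did not change. *Lin28a*, *Igf2bp1* and *Lin28b* are limited by few reads, 3, 0 and 68, and *Lin28b* also by the spread between its libraries.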
